A study of Mus musculus with 6 samples.

Results

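The 10 genes described here encode inflammatory and regulatory cytokines of myeloid cells: Il1a, Il1b, Il1rn, Il6, Il10, Il12a, Il12b, Il18, Il27 and Tgfb1. They were taken by gene symbol from the deposited table of 54532 mouse genes, and each symbol matched 1 row. RNA-seq was performed on activated primary CD8T cells after coculture, with 3 control libraries and 3 of the DB2313 group. In the study's methods the CD8T cells came from mouse spleen, were stimulated with anti-CD3/28 beads and shared medium for 24 hr with thioglycolate-elicited peritoneal macrophages that had received 10 ng/mL IFN-γ for 12 hr. The groups differ in the treatment of these macrophages with DB2313, which inhibits Spi1, a transcription factor of myeloid cells, and for which 14 nM is given in the methods. GEO's labels divide the libraries in the same way (CONT and DB2313T) but name DC cells as the cocultured cells. Strain, and whether the 3 libraries of a group came from separate cultures, are not given in the sources used here, so p-values measure the spread between these libraries, which may be technical.

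As background, interleukin-1 alpha and beta (Il1a, Il1b) are the agonists of the interleukin-1 receptor and Il1rn encodes the antagonist that occupies the same receptor without signalling. Il18 is a relative of Il1b that is also matured by caspase-1 and drives IFN-γ production by T cells and NK cells. The product of Il12b pairs with that of Il12a to form IL-12 and with that of Il23a to form IL-23, while the product of Il27 pairs with that of Ebi3. Macrophages and dendritic cells make most of these cytokines after activation, Il10 restrains them, and Tgfb1 is made by lymphocytes as well as by myeloid cells and is stored in a latent form.

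Because DB2313 acts on Spi1, a factor of the ETS family whose sites are built around GGAA, the sequences around the start sites of 4 members are shown: Il1b and Il1a, which fell the most, Il12b, and Il6, which did not pass the test. They come from RefSeq on GRCm38.p6, which held 11 start windows for 8 members, and each runs from 250 bases before the start site to 50 bases from it on, 5′ to 3′ on the strand of the gene. Capitals mark GGAA, or TTCC where it lies on the other strand.
Il1b, chr2:129371090-129371389, minus strand: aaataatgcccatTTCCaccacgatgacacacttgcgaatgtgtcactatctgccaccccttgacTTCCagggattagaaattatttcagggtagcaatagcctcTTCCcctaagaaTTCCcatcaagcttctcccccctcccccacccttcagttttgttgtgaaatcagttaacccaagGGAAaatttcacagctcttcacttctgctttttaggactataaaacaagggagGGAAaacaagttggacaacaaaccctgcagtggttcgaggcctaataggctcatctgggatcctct
Il1a, chr2:129309923-129310222, minus strand: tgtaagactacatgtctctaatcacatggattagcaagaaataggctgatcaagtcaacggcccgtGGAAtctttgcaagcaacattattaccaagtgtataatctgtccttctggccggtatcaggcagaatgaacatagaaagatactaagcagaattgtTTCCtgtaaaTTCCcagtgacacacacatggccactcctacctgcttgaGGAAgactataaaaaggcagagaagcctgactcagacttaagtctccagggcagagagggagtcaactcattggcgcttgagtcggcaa
Il12b, chr11:44399813-44400112, plus strand: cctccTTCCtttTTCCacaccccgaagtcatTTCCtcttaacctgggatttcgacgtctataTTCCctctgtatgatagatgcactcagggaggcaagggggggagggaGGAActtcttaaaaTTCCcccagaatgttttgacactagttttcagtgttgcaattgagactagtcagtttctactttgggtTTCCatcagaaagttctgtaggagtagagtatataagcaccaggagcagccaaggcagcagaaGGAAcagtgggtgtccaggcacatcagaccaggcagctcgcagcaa
Il6, chr5:30012864-30013163, plus strand: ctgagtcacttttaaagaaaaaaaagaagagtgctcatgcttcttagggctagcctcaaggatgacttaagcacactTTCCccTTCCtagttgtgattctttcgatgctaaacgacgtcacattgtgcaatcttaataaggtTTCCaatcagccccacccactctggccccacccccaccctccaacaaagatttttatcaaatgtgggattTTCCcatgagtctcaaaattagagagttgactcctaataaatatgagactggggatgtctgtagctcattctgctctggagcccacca
GGAA was found 6 times in the Il1b window, 4 times in that of Il1a, 8 times in that of Il12b and 4 times in that of Il6. In the windows not shown, it was found 5, 6 and 8 times for Il1rn and 3 and 1 times for Il12a. The Il1rn windows with 6 and 8 matches overlap, and all 6 matches of the former are counted again in the latter. Il18 and Tgfb1, which also fell, had 2 and 1 matches. The Il18 window ends at 50554749, before the start of the counted gene at 50554827, so it may not be the promoter of that gene model. Among all 32851 windows of this length, 96.0% held GGAA at least once, with a median of 3 matches. The longer GAGGAA, which contains GGAA, was searched on both strands as well. It stood in the windows of Il1a and Il12b only, among the 8 members with a window, and in 28.3% of all windows. The NF-kappa-B motif was searched only as GGGRNWYYCC (R is A or G, W is A or T, Y is C or T, N is any base). Sites that depart from this pattern were not looked for. A match was found in Il6 alone among these 8, from 44 to 35 bases before the start site and overlapping a GGAA match, and in 4.51% of all windows. The AP-1 motif TGANTCA was matched in Il1a, Il1rn and Il6, and in 7.81% of all windows. These matches are descriptions of the letters and say nothing of binding.

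Library totals ranged from 16611975 to 18596217 counts on genes. T cell markers were well counted in each library, and all 15 of them rose with DB2313, with a median log2 fold change of 0.59 that was -0.010 when libraries were scaled to these markers. That scaling sets the summed counts of these markers equal across libraries, so the second value follows from the scaling itself. Lck went from 338.8 ± 4.52 to 527.9 ± 15.2 CPM (SD, n = 3 each; CPM, TMM-scaled counts relative to the library total). Macrophage markers were counted as well. Of 15, 14 were tested, 13 fell and 1 rose (Marco, a call lost with scaling to the T cell markers), with a median of -1.02, and Vsig4 was at 0 in each library. Lyz2, the most abundant of them, went from 7702 ± 133 to 2084 ± 36.6 CPM (SD, n = 3 each). Their summed level was 10810 to 11130 CPM in the control libraries and 3562 to 3688 CPM in the DB2313 libraries. Of 11 dendritic cell markers, 7 fell and 2 rose, with Siglech at 0 and sums of 3874 to 3933 and 2694 to 2732 CPM. The larger rise was that of Clec10a, from 38.9 ± 1.16 to 88.0 ± 3.58 CPM (SD, n = 3 each), a log2 fold change of 1.18. The other rise (Flt3) turned to lower with scaling to the T cell markers, and the small fall of Ccr7 was lost with library size and upper quartile scaling. Of 8 neutrophil markers, 7 fell and 1 rose, with sums of 1302 to 1307 and 308.8 to 343.9 CPM; the rise, in Retnlg with 4 to 20 counts, was lost with DESeq2, with no filter, with scaling to the T cell markers and without DB2313 replicate 1, control replicate 1 or control replicate 2. Of 6 B cell markers 4 rose, with sums of 39.6 to 45.3 and 57.3 to 59.8 CPM, and all 4 rises were lost with scaling to the T cell markers, where the median turned from 0.47 to -0.14. The rise of Ms4a1 was also lost with DESeq2 and without control replicate 1. The lower macrophage, dendritic cell and neutrophil sums stand beside each fall given below, and their part in it was not tested. The rises of the T cell and B cell markers run the other way. In RNA of mixed cells, fewer cells of a type and less RNA per cell cannot be told apart.

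Of the 10 cytokine genes, 9 passed the filter on low counts and were tested; Il10 did not pass it. Il1b, Il1a, Il18, Il1rn, Il12b, Il27 and Tgfb1 were lower with DB2313 at an adjusted p below 0.05 (edgeR, over the 14883 genes tested), none was higher (also with DESeq2), and Il6 and Il12a did not pass, with unadjusted p of 0.0954 and 0.19 from edgeR. Of all tested genes, 45.4% passed in either direction. The median log2 fold change of the 9 was -0.82, against 0.019 over all genes tested. At this threshold 24.6% of all tested genes were lower and 20.8% higher, and in 27.5% every DB2313 library lay below every control library, as it did in the 7 members that fell; 53.1% of genes had no overlap in either direction. With an absolute log2 fold change above 1 as a further condition, Il1b, Il1a and Il18 remained, against 5.3% of all genes that were lower by both conditions and 1.37% that were higher. Il1rn lay at this limit, with a log2 fold change of -0.995 that passed it without control replicate 1 or without DB2313 replicate 2 (-1.06), and with glmTreat, which tests against a log2 fold change of 1, Il1b was the only one of the 10 left.

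**Figure D1:**
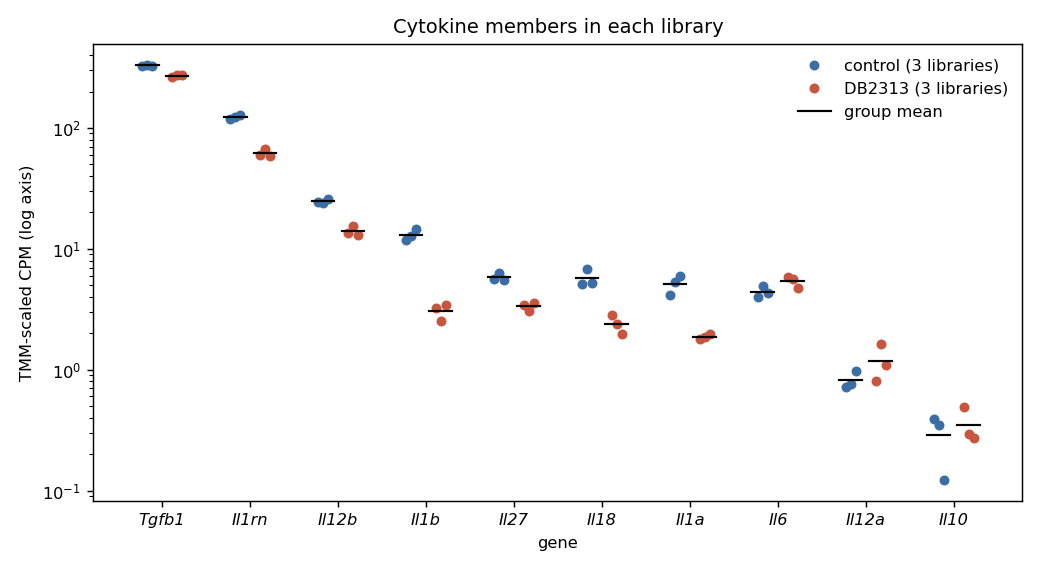
TMM-scaled CPM (log axis) of the 10 cytokine genes, ordered by level in the control group, with 1 point per library and the group mean as a line. For Il1b the control libraries lie between 11.9 and 14.5 CPM and the DB2313 libraries between 2.52 and 3.42 CPM, while the groups overlap in Il6, Il12a and Il10.

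Il1b (ENSMUSG00000027398, chromosome 2 of GRCm38 from 129364570 to 129371139, minus strand) had the largest fall. Its counts were 215, 218 and 237 in the control group against 60, 43 and 63 with DB2313, or 11.9, 12.7 and 14.5 CPM against 3.25, 2.52 and 3.42 CPM. Even the lowest control library stood far above the highest DB2313 library. It fell by 2.08 on the log2 scale (standard error 0.15, adjusted p = 5.56e-11, edgeR), so that 23.7% of the control level was left. Il1a (ENSMUSG00000027399), which lies 54597 bases from Il1b on the same strand, was at 4.16, 5.35 and 5.93 CPM in the control group and at 1.79, 1.88 and 1.96 CPM with DB2313. Without the strand of the reads, counts of the opposite-strand genes Il1bos (0 to 7 counts) and Gm14023 (2 to 13 counts), which overlap Il1b and Il1a, cannot be told apart from theirs. The control libraries of Il1a were more scattered than the DB2313 libraries, and the groups did not overlap. It fell by 1.45 on the log2 scale (standard error 0.22, adjusted p = 6.77e-06, edgeR).

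The antagonist Il1rn (ENSMUSG00000026981, chromosome 2 from 24336853 to 24351494) was far more abundant than either agonist, at 119.2, 123.4 and 127.0 CPM in the control group and 59.7, 67.5 and 58.4 CPM with DB2313. The groups did not overlap, and Il1rn fell by 0.995 on the log2 scale (standard error 0.051, adjusted p = 8.28e-14, edgeR). The ratio of antagonist to agonists within a library does not depend on the scaling, and was computed per kilobase of gene length after the changes of the genes had been seen. Il1rn stood at 2.58, 2.38 and 2.17 times the sum of Il1a and Il1b in the control libraries and at 4.14, 5.37 and 3.78 times in the DB2313 libraries. The means were 2.38 ± 0.206 and 4.43 ± 0.83 (SD, n = 3 each), with no overlap (exact permutation p = 0.1, two-sided; no smaller value can be reached with 3 libraries a group). Within the agonists, Il1b went from 2.65 ± 0.278 to 1.70 ± 0.266 times Il1a (SD, n = 3 each; exact permutation p = 0.1).

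The receptors of interleukin-1 moved in unlike ways. Il1r2, the decoy receptor that binds interleukin-1 without signalling, was at 63.8, 69.6 and 67.2 CPM in the control group and 31.7, 34.9 and 31.1 CPM with DB2313, a log2 fold change of -1.04 (standard error 0.064, adjusted p = 2.34e-12, edgeR). Il1r1, the signalling receptor, was much lower, at 3.10, 3.61 and 3.18 CPM against 4.66, 5.98 and 4.13 CPM, and was called higher with a log2 fold change of 0.57 (standard error 0.20, adjusted p = 0.0194, edgeR), or -0.029 with scaling to the T cell markers. That call was lost with DESeq2 (adjusted p = 0.0716) and without DB2313 replicate 2 (0.42, adjusted p = 0.129, edgeR), control replicate 1 or control replicate 3. Decoy counts per kilobase were 67.8 ± 3.17 times those of Il1r1 in the control libraries and 22.5 ± 2.84 times in the DB2313 libraries (SD, n = 3 each; exact permutation p = 0.1). Il1rap, the accessory chain of the receptor, stood at 0.26 on the log2 scale (standard error 0.12, adjusted p = 0.0741, edgeR). It passed as higher with library size scaling (0.36, adjusted p = 0.0141), with upper quartile scaling and without DB2313 replicate 1, and as lower with scaling to the T cell markers (-0.34).

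Il18 (ENSMUSG00000039217, chromosome 9 from 50554827 to 50581840) was at 5.10, 6.87 and 5.25 CPM in the control libraries and 2.82, 2.40 and 1.96 CPM in the DB2313 libraries. All DB2313 libraries were below all control libraries, and the gene fell by 1.26 on the log2 scale (standard error 0.21, adjusted p = 2.08e-05, edgeR). Il18bp, the soluble binding protein that neutralises IL-18, fell less, from 137.7 ± 1.98 to 102.7 ± 0.987 CPM (SD, n = 3 each), with a log2 fold change of -0.42 (standard error 0.038). Counts per kilobase of Il18bp were 8.33 ± 1.32 times those of Il18 without DB2313 and 14.9 ± 2.60 times with it (SD, n = 3 each; exact permutation p = 0.1). Of the receptor chains on T cells, Il18r1 rose by 0.36 on the log2 scale (standard error 0.065, adjusted p = 8.75e-05, edgeR) but was at -0.25 with scaling to the T cell markers, and Il18rap was at -0.0051 (standard error 0.064). The first 355 bases of Il18 overlap Bco2 on the opposite strand, which had 12 to 39 counts and a log2 fold change of -1.19, so without the strand of the reads a few counts could belong to either gene.

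**Figure D2:**
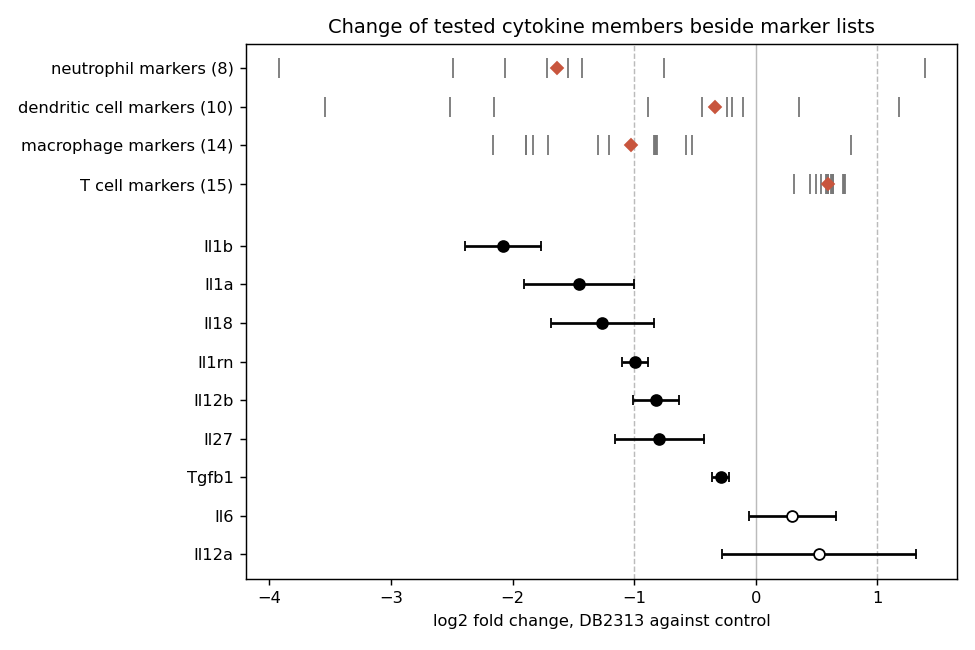
Log2 fold change (DB2313 against control) of the 9 tested cytokine genes with 95% confidence intervals, filled where the adjusted p was below 0.05, beside the single genes (ticks) and the median (diamond) of 4 marker lists. Il1b lies at -2.08, outside all but 1 of the macrophage marker ticks on that side, and Tgfb1 at -0.29; the T cell markers have their median at 0.59.

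In the IL-12 family the abundant chain Il12b fell, and the scarce chain Il12a did not pass the test. Il12b (ENSMUSG00000004296, chromosome 11 from 44400063 to 44414033) was at 24.6, 23.7 and 26.1 CPM in the control libraries and 13.6, 15.4 and 13.1 CPM in the DB2313 libraries. The groups were well apart, with a log2 fold change of -0.82 (standard error 0.091, adjusted p = 7.63e-08, edgeR). Il12a (ENSMUSG00000027776), the chain that makes the pair IL-12, had only 13, 13 and 16 counts without DB2313 and 15, 28 and 20 with it, and the groups overlap. Its log2 fold change was 0.52, with a 95% interval from -0.28 to 1.32 (adjusted p = 0.288, edgeR), an interval that spans both a fall and a rise at this depth. Without DB2313 replicate 2 the value for Il12a was 0.22. Per kilobase, Il12b was at 26.6 ± 3.26 times Il12a in the control group and at 11.02 ± 3.25 times with DB2313 (SD, n = 3 each; exact permutation p = 0.1). Il23a, the other partner of Il12b, had 1 to 5 counts in a library and was not tested.

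Il27 (ENSMUSG00000044701, chromosome 7 from 126589010 to 126594941) was at 5.60, 6.34 and 5.50 CPM in the control group and 3.41, 3.05 and 3.59 CPM with DB2313, a log2 fold change of -0.79 (standard error 0.18, adjusted p = 0.000684, edgeR). The groups did not overlap. Ebi3, its partner chain, went from 36.6 ± 1.77 to 29.5 ± 0.439 CPM (SD, n = 3 each), with a smaller log2 fold change of -0.31 (standard error 0.069), so that Ebi3 went from 5.58 ± 0.234 to 7.82 ± 0.574 times Il27 per kilobase (SD, n = 3 each; exact permutation p = 0.1). The last 103 bases of Il27 overlap Apobr on the opposite strand, which had 934 to 1301 counts and a log2 fold change of -0.41. Il27 itself had 52 to 109 counts. Without the strand of the reads, part of these could belong to Apobr, which would also touch the ratio to Ebi3. Receptor chains of these cytokines differed: Il12rb2 fell by 0.998 (standard error 0.085) and Il12rb1 by 0.44 (standard error 0.052), Il23r by 0.75 (standard error 0.22), and Il27ra rose by 0.25 (standard error 0.040) on the log2 scale, though it was at -0.36 with scaling to the T cell markers.

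**Figure D3:**
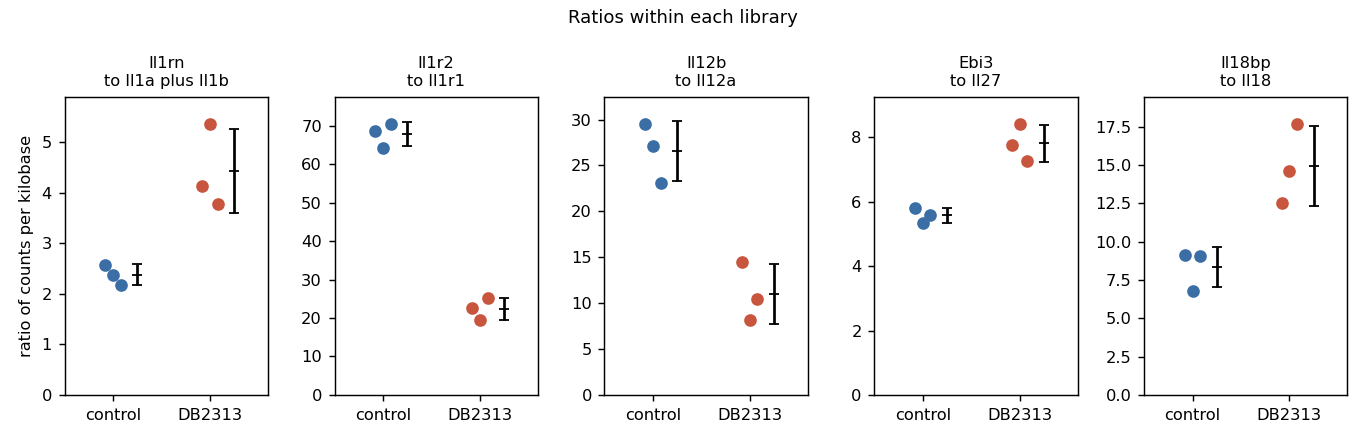
Ratio of counts per kilobase of gene length in each library (points), with mean and SD of each group (n = 3). The panels set cytokine genes against their antagonist, binding protein or partner chains, and the decoy receptor Il1r2 against the signalling receptor Il1r1. The groups do not overlap in any of the 5 panels; the ratio of Il1rn to Il1a plus Il1b is 2.17 to 2.58 in the control libraries and 3.78 to 5.37 in the DB2313 libraries.

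Il6 (ENSMUSG00000025746, chromosome 5 from 30013114 to 30019981), the inducer of the acute phase response, did not pass the test. It was at 3.99, 4.89 and 4.28 CPM in the control libraries and 5.85, 5.63 and 4.73 CPM in the DB2313 libraries, so that the lowest DB2313 library lay below the highest control library. The log2 fold change of 0.30, with a 95% interval from -0.057 to 0.66, did not pass (adjusted p = 0.165, edgeR), and its direction turned when libraries were scaled to the T cell markers (-0.30). The receptor gene Il6ra was at 0.069 (standard error 0.037), past the threshold as higher with library size scaling (0.16) and upper quartile scaling and as lower with scaling to the T cell markers (-0.54), and Il6st, the signal-transducing chain it shares with other cytokines, fell by 0.23 on the log2 scale (standard error 0.038).

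Il10 (ENSMUSG00000016529, chromosome 1 from 131019845 to 131024974), which dampens macrophage activation, was barely counted, with 7, 6 and 2 counts in the control libraries and 9, 5 and 5 in the DB2313 libraries. With no filter its log2 fold change was 0.28, with a 95% interval from -1.21 to 1.77, an interval that spans both a fall and a rise at this depth. The receptor chain Il10ra was well counted and fell from 183.8 ± 1.90 to 113.2 ± 1.59 CPM (SD, n = 3 each), with a log2 fold change of -0.70 (standard error 0.037, adjusted p = 1.18e-13, edgeR). Il10rb was at -0.10 (standard error 0.055, adjusted p = 0.139, edgeR).

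Tgfb1 (ENSMUSG00000002603, chromosome 7 from 25687002 to 25705077), the regulatory cytokine with the highest level of the 10, had the smallest fall among the 7. It was at 328.6, 333.4 and 328.2 CPM in the control libraries and 262.4, 275.6 and 274.6 CPM in the DB2313 libraries, a log2 fold change of -0.29 (standard error 0.034, adjusted p = 2.07e-07, edgeR). Replicates were tight and the groups did not overlap. The size of the fall depended on the scaling. Tgfb1 was at -0.19 with library size scaling, -0.22 with upper quartile scaling and -0.89 with scaling to the T cell markers, and was called lower with each. Its receptor chains moved in opposite directions: Tgfbr1 fell by 0.69 (standard error 0.051), while Tgfbr2 rose by 0.20 (standard error 0.035) and the coreceptor Tgfbr3 by 0.42 (standard error 0.092) on the log2 scale, with -0.40 and -0.18 under scaling to the T cell markers. Profiles were compared only with 12524 protein-coding tested genes outside the members, pathway and marker lists. Over the 6 libraries, the profiles of log2 CPM most like that of Tgfb1, each centred on its own mean, were those of Pip5k1c, Glul and Psme2, with a root mean square difference of 0.0089 to 0.014. For Il1rn, the next most abundant member, they were Tifa, Rasa4 and Rasgrp4, with 0.041 to 0.045.

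Per kilobase of gene length, the control group had the order Tgfb1 (65.5 ± 0.576 CPM per kilobase), Il1rn (22.3 ± 0.71), Il12b (12.6 ± 0.603), Il1b (6.83 ± 0.69), Il27 (5.69 ± 0.452), Il18 (5.57 ± 0.949), Il1a (2.61 ± 0.457), Il6 (1.81 ± 0.189), Il12a (0.481 ± 0.0818) and Il10 (0.219 ± 0.11; SD, n = 3 each). Il27 and Il18 differed by less than their SD, and the other neighbours by more than the larger SD of the pair. With DB2313 the first 3 places were kept, at 53.7 ± 1.45, 11.2 ± 0.886 and 7.14 ± 0.615 CPM per kilobase (SD, n = 3 each). Il1b, at 1.61 ± 0.251 CPM per kilobase, now stood below Il27 (3.28 ± 0.27), Il18 (2.32 ± 0.417) and Il6 (2.22 ± 0.244), of which the last pair differed by less than their SD (SD, n = 3 each).

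The genes around these cytokines were followed in a list of 63 genes, of which 56 were tested, 30 were lower and 13 higher, with a median log2 fold change of -0.22. Among all tested genes 24.6% were lower and 20.8% higher, so the share of rises in the list, and in its receptors and signalling genes given next, lies near the background. Among 17 receptors and decoys, 8 fell and 5 rose, and all 5 rises were absent when libraries were scaled to the T cell markers, where Il18r1, Il27ra and Tgfbr2 were lower. Among 14 tested processing and activation genes, 10 fell and 2 rose. Thrombospondin-1 (Thbs1), an activator of latent TGF-β, fell by 1.83 (standard error 0.037), Nlrp3, the inflammasome sensor upstream of caspase-1, by 1.63 (standard error 0.086) and Ltbp3, which binds latent TGF-β, by 1.22 (standard error 0.19) on the log2 scale. The 2 rises, in Lrrc32 and Ltbp1, were both lost without control replicate 1 and without DB2313 replicate 2, and that of Lrrc32 (0.11) also in each other fit without 1 library except that without DB2313 replicate 3. Casp1 itself fell by 0.37 (standard error 0.05; named after its value was seen). Among 18 signalling genes, 8 fell and 5 rose, none of which was higher with scaling to the T cell markers, and the largest changes were falls of Irak3 (-0.79), an inhibitor of interleukin-1 receptor signalling, Irak2 (-0.76) and Jak2 (-0.74). Among the 7 tested relatives and partner chains, 4 fell and Clcf1 rose by 0.51 (standard error 0.055) but was at -0.096 with scaling to the T cell markers. Il1f9, now called Il36g, went from 20.01, 15.6 and 18.4 CPM to 2.71, 4.10 and 3.91 CPM, a log2 fold change of -2.33 (standard error 0.15, adjusted p = 4.45e-12, edgeR), and Tgfb3 had one of -1.70 (standard error 0.43).

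**Figure D4:**
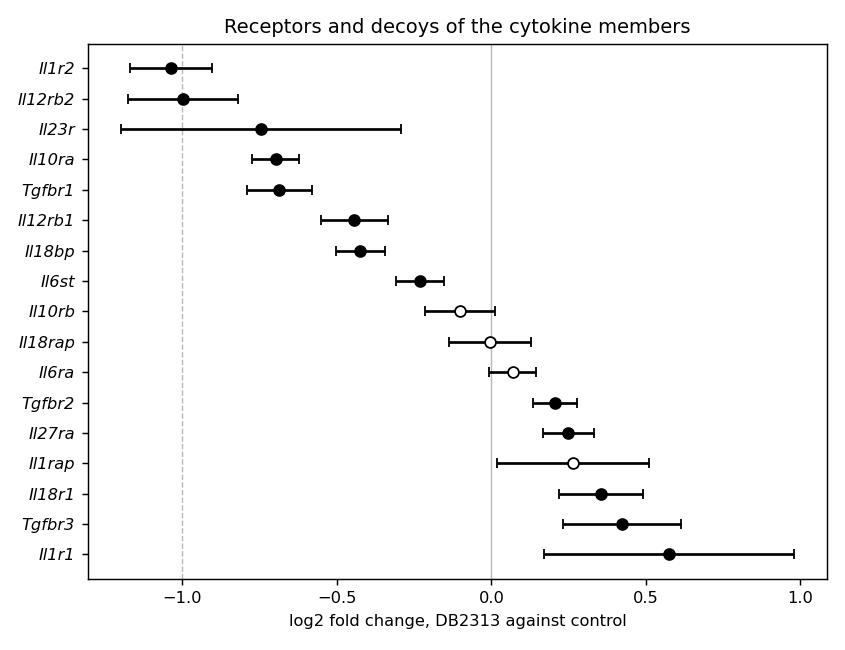
Log2 fold change (DB2313 against control) with 95% confidence interval for the 17 receptors and decoys of these cytokines, filled where the adjusted p was below 0.05. Il1r2 is at -1.04 and Il12rb2 at -0.998, and the highest value is that of Il1r1, at 0.57 with a wide interval.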

How the data were processed

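Counts per gene were deposited by the authors without normalization. The methods of the study name LifeScope v2.5.1 for alignment and counting, while the submitters' processing notes list CASAVA 1.8, HISAT2 2.0.5 and featureCounts 1.5.0-p3; the genome build, the annotation and the strand setting are not given in the sources used here. Coordinates were those of GENCODE M21 on GRCm38 in 98.3% of 54409 shared genes, and in all 10 members. Each column was matched to its sample by the label CONT or DB2313T with its number.

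Totals were 16611975 to 18596217 counts per library. No 2 libraries of a group agreed within counting error (chi-square of 2.54 to 4.00 per gene). The authors' counts were tested with edgeR 4.0.16 in R 4.3.3 (filterByExpr, TMM, glmQLFit, glmQLFTest) over 14883 genes, with Benjamini-Hochberg adjustment and a threshold of 0.05; the standard error was the log2 fold change over the square root of F. A second call added an absolute log2 fold change above 1. CPM values were scaled by TMM and, between genes, divided by the gene length in the deposited table. The scripts were tested on simulated counts. Ratios between genes were added after the changes had been seen. The members, gene lists and tests were chosen with earlier results of these data known. The genes named were the members, Ebi3 and Il23a, their receptors, the 3 largest called changes in each other part of the list, the most abundant T cell and macrophage marker and, for the 2 most abundant members, the 3 genes with the most similar profiles. Marco, Vsig4, Siglech, Ccl22, Clec10a, Flt3, Ccr7, Retnlg, Lrrc32, Ltbp1, Casp1 and the genes whose calls changed with the processing were named after their values were seen. Alternatives were DESeq2 1.42.0, other scalings and filters, protein-coding genes, a replicate block, glmTreat and leaving out each library. Libraries with the same number did not deviate together from their group means (r from -0.10 to -0.0039 over 9666 genes). Symbols not found in the table were matched through RefSeq synonyms. No protein sequence was used here.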

Additional observations from a re-analysis of the deposited data

How the results depend on the processing

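In 124 of 126 comparisons of the 9 tested cytokine genes with the alternatives, direction and side of the threshold on the adjusted p were kept; the exceptions were Il6 (-0.30) and Il12a (-0.079), whose direction reversed with scaling to the T cell markers, a scaling that moved the median of all genes from 0.019 to -0.58 and so lowers every value alike. Of all genes, 154 were then higher and 11621 lower, against 3096 and 3667. With library size scaling that median was 0.11, with 4931 higher and 2852 lower. Past a log2 fold change of 1, 6 members were lower with T cell marker scaling, 1 with glmTreat, and 3 to 4 with single libraries left out (4 without control replicate 1 or DB2313 replicate 2). The replicate numbers give no pairing in the data, and with the replicate number as a block the members' log2 fold changes were between -2.08 (Il1b) and 0.50 (Il12a), the 7 members were lower again, and of the processing genes 1 was higher in place of 2 and of the signalling genes 7 were lower in place of 8 (Stat3 lost, adjusted p = 0.0622, edgeR). With library size scaling the falls of Casp4, Itgav, Stat3 and Socs3 were lost, leaving 8 processing and 6 signalling genes lower, and with each library left out these counts were 9 to 10 and 7 to 8. With T cell marker scaling, 0 genes were higher in each of the 4 parts of the pathway list, and 15 receptors and decoys and 17 signalling genes were lower. Among processing genes 1 was higher with DESeq2 and 1 with no filter, and 0 to 2 with each library left out; receptors and decoys had 4 to 6 higher genes. The medians of the marker lists with library size scaling were 0.69 (T cell), -0.93 (macrophage), -0.24 (dendritic cell) and -1.54 (neutrophil); with the upper quartile they were 0.66 (T cell) and -0.96 (macrophage); and with T cell marker scaling -0.010 (T cell), -1.63 (macrophage), -0.94 (dendritic cell), -2.24 (neutrophil) and -0.14 (B cell). The T cell median under T cell marker scaling is set by that scaling. With at least 10 counts in every sample the medians were -0.24 (dendritic cell) and -1.72 (neutrophil), as fewer genes were tested. With each library left out they ranged from 0.58 to 0.61 (T cell), -1.07 to -1.0 (macrophage) and -1.70 to -1.58 (neutrophil). Depth limits Il12a and Il10, whose counts did not exceed 28 and 9 in a library.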
